A study of Mus musculus with 12 samples.

Results

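The mitochondrial carrier genes, that is the Slc25 family together with the uncoupling protein genes Ucp1, Ucp2 and Ucp3, were followed across 12 RNA-seq libraries of mouse pancreatic islets. Members were all protein-coding genes of the deposited read count tables whose symbol, joined by Ensembl ID, begins with Slc25a and a number or is 1 of the 3 Ucp symbols. The rule found 50 genes among the 54532 genes listed per library, of which 21918 were protein-coding. The pseudogene Slc25a5-ps, with 83 counts in the 12 libraries, was not a member.

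The 12 libraries formed 4 groups of 3, all from islets of male C57BL/6 mice labelled as 40 weeks old. HFD KO mice lacked Sirt3, the gene of a mitochondrial NAD-dependent deacetylase, selectively in pancreatic beta cells. For 36 weeks they were fed a high fat diet in which fat supplied 60% of calories, after 6 weeks (replicates 1 and 3) or 5 weeks (replicate 2) of standard food. HFD WT mice were wild type and received the same high fat diet for 36 weeks after 4 weeks of standard food, so genotype and the length of the first period differed together. STD KO mice carried the beta-cell-selective Sirt3 knockout, STD WT mice were wild type, and both had only a standard diet with 6.2% fat. The sources used here do not give the promoter driving Cre, the deleted exons, or whether a library held islets of 1 or of several animals, so p-values measure the spread between these libraries. For the HFD KO mice the feeding periods add up to more than the labelled age. Islets also hold alpha, delta and other cells that the knockout does not target. In such bulk RNA, fewer cells of a type and less RNA per cell cannot be told apart.

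Library totals lay between 16037709 and 20864920 counts. Sirt3, as CPM on edgeR's TMM-scaled library sizes (normalised CPM), was 7.85, 11.5 and 6.21 in HFD KO islets, against 11.4, 9.30 and 11.8 in HFD WT islets. It was 6.59, 5.97 and 5.86 in STD KO islets, against 9.04, 11.3 and 11.5 in STD WT islets. The library labelled HFD KO 2 thus lay inside the WT range. The log2 fold change was -0.35 under high fat diet (edgeR adjusted p = 0.363; -0.63 and 0.116 without HFD KO 2) and -0.79 under standard diet (0.156). Beta cell markers were high in every library, with sums over 9 genes from 188137 to 405543 normalised CPM. Insulin transcripts (Ins1 and Ins2) took 19.7% to 33.5% of counts. Summed markers of 5 alpha cell genes were 31599, 35561 and 13170 normalised CPM in HFD KO 1, 2 and 3, against 19636 to 23667 in HFD WT islets. They were 17716 to 26098 in STD KO islets, against 27697 to 35132 in STD WT islets. Summed markers of 5 macrophage genes were 249 to 333 in HFD KO islets, against 127 to 208 in HFD WT islets. They were 201 to 267 in STD KO islets, against 155 to 214 in STD WT islets. Summed markers of 6 adipocyte genes were 31.7 to 40.1 in HFD KO islets, against 15.02 to 26.1 in HFD WT islets. Acinar markers ranged from 4692 to 25139 over the 12 libraries.

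Carriers of this family sit mostly in the inner mitochondrial membrane, which is impermeable to most metabolites, and each exchanges or imports a particular substrate. They let ADP and phosphate in and ATP out, pass citrate, malate and glutamate between matrix and cytosol, and bring in carnitine esters of fatty acids, cofactors and iron. In beta cells they connect glucose breakdown to insulin release. The malate-aspartate shuttle carries the reducing power of cytosolic NADH into the matrix, ATP export sets the ATP that closes potassium channels, and citrate and malate export feeds cytosolic NADPH production. The proteins are nuclear-encoded and reach the inner membrane through the TIM22 import complex. SIRT3 removes acetyl groups from matrix proteins. The libraries report transcript levels, not carrier activity or acetylation.

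Transcript levels spread over a wide range, from genes among the most abundant in islets to genes with no read at all. Compared per gene length by the deposited FPKM (fragment counts scaled by gene length and library total), averaged over the 12 libraries, 5 carriers stood at 100 or more, 21 between 10 and 100, 13 between 1 and 10, and 11 under 1. All 50 together took 0.204% to 0.232% of a library's counts. The 5 most abundant carriers held 57.1% to 65.3% of the family's summed FPKM.

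Ucp2, which encodes an uncoupling protein studied in beta cells for its effect on glucose-stimulated insulin secretion, had the highest level at 263 ± 34.9 FPKM (SD over 12 libraries). It ranked between 217 and 306 among all genes of a library. This order rests on the lengths implied by the deposited FPKM, 1132 bases for Ucp2 and 1494 for Slc25a3. The longest coding transcript of Ucp2 has 3988 bases, and the lengths were not tested. In normalised CPM, which takes no account of length, Slc25a3 averaged 306 and Ucp2 297. Slc25a5 and Slc25a3 followed with 216 ± 19.8 and 204 ± 19.1 FPKM. Slc25a5 encodes the adenine nucleotide translocase that exchanges matrix ATP for cytosolic ADP, and Slc25a3 the phosphate carrier that supplies ATP synthase. These last levels were not separable, since Slc25a5 was the higher in only 7 of 12 libraries and the difference was within the SD. Slc25a39, required for mitochondrial glutathione import, had 175 ± 16.5 FPKM. Slc25a4, the translocase isoform dominant in heart and muscle, had 134 ± 19.2 FPKM.

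Below them came the carriers of the citrate and malate exchanges. Slc25a1, the citrate carrier, had 94.2 ± 11.8 FPKM, and Slc25a11, which exchanges malate for oxoglutarate, had 65.2 ± 5.66 FPKM. Slc25a17, a peroxisomal carrier of coenzyme A and other nucleotide cofactors, had 63.0 ± 4.77 FPKM and could not be ordered against Slc25a11, which was higher in 6 of 12 libraries. Slc25a36, a pyrimidine nucleotide carrier, had 53.5 ± 6.78 FPKM, and Slc25a51, the NAD importer, 43.6 ± 6.52 FPKM. Each of Slc25a1, Slc25a36 and Slc25a51 exceeded the next gene in order in all 12 libraries. Among further carriers of known role, the aspartate-glutamate carrier Slc25a12 had 33.1 ± 3.85 FPKM, while its paralog Slc25a13 had 4.00 ± 1.57 FPKM. The glutamate carrier Slc25a22 had 23.9 ± 3.58 FPKM and the carnitine-acylcarnitine carrier Slc25a20 14.8 ± 3.45 FPKM. From Slc25a22, the 13th, down to Slc25a42, the 28th, neighbours in the order differed by less than the larger of their SDs over libraries.

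**Figure D1:**
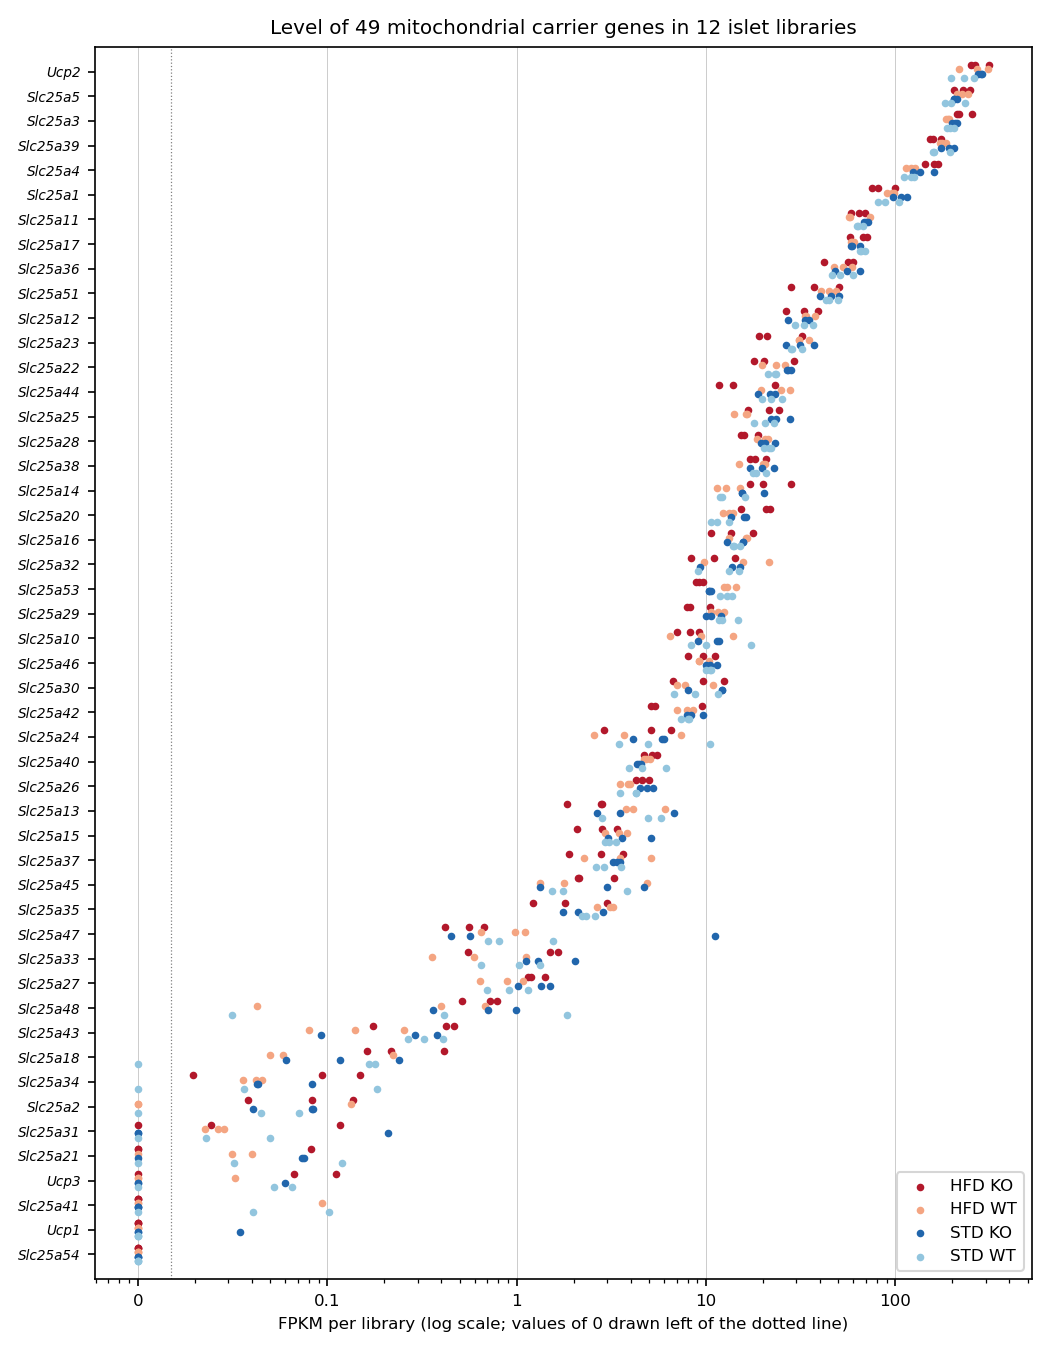
Deposited FPKM (log axis) of 49 of the 50 carrier genes, 1 point per library, coloured by group, with genes ordered by their mean over the 12 libraries. Ucp2 stands at the top at 263 FPKM on average, the 4 groups overlap for most genes, and a single STD KO library carries Slc25a47 to 11.2 FPKM.

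At the other end, 10 carriers did not pass the filter on low counts (edgeR's filterByExpr) and were not tested. Slc25a54, a relative of the ATP-magnesium/phosphate carriers, had 0 counts in 216685869 counts over all libraries, which allows a level of up to 0.0138 CPM for counting error alone. Ucp1, the uncoupling protein of brown fat heat production, had 1 count, in STD KO 1. Ucp3, the skeletal muscle uncoupling protein, had 13 counts. The summed level of 4 other brown adipocyte markers (Cidea, Elovl3, Dio2 and Cox8b) was 0.400 to 1.71 normalised CPM per library, with 1 to 3 of them at 0. The other untested carriers had 5 to 70 counts each: Slc25a41 (5), Slc25a21 (12), Slc25a2 (17), Slc25a31 (19), Slc25a34 (36), Slc25a18 (65) and Slc25a43 (70). Slc25a31 is the adenine nucleotide translocase of the germ line, and Slc25a18 the second glutamate carrier.

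Ucp2 and Ucp3 lie next to each other in the same orientation on chromosome 7 (mm10), with 6904 bases between the end of Ucp3 at 100486432 and the start of Ucp2 at 100493337. Their levels were 263 and 0.0324 FPKM. The 250 bases before each RefSeq transcription start (GRCm38.p6) are shown because this pair holds the family's highest mean FPKM beside one near 0. Capitals mark CG dinucleotides.
Ucp2, chr7:100493108-100493357, plus strand: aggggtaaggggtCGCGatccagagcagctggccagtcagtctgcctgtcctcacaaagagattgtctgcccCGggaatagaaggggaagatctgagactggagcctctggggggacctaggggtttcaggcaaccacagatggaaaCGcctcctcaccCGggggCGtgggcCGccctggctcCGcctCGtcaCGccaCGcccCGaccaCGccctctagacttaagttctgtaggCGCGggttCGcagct
Ucp3, chr7:100472741-100472990, plus strand: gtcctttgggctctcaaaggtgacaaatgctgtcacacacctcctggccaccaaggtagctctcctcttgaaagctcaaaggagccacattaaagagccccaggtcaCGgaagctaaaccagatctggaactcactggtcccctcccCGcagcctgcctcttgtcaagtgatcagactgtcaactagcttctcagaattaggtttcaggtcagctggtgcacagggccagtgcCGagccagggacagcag
The Ucp2 stretch holds 16 CG pairs and the Ucp3 stretch 3. Over the family, RefSeq windows from 250 bases before to 50 after a start were at hand for 39 members. The highest CG count per member had a median of 21 (7 to 51) in the 31 tested members and of 8 (1 to 22) in the 8 untested ones. All 32851 windows in the table had a median of 7. These are descriptions of sequence, and methylation was not measured. Of motifs searched on both strands in these 300 bases, NRF1's motif (GCGCA and GCGC with any 1 base between them) was found in 2 of 39 members (Slc25a3 and Slc25a31) and in 4.60% of all windows. GABPA's CCGGAAG was found in 7 of 39 members, Slc25a3, Slc25a4, Slc25a17, Slc25a20, Slc25a25, Slc25a38 and Slc25a54, and in 8.86% of all windows. CCAAT was found in 19 of 39 members and 37.4% of windows, and TATAAA in 2 of 39 and 13.6%. A member can have several windows, so these shares are not on equal terms.

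The first comparison asked which carriers differ in islets without beta cell Sirt3. Few passed the threshold on the adjusted p. A carrier that missed it is not shown to be unchanged, since Sirt3 itself missed it under both diets, as given above. Of the 40 tested carriers, 1 passed the threshold between HFD KO and HFD WT islets, at a Benjamini-Hochberg adjusted p under 0.05 in edgeR's quasi-likelihood test over 16076 genes. That is 2.5% of the carriers, in a comparison that called 7.40% of all genes (562 genes, 3.50%, lower and 627 genes, 3.90%, higher in KO). None of 40 passed between STD KO and STD WT islets, where 1.71% of all genes did (0.367% lower and 1.34% higher in KO). At an unadjusted p under 0.05 there were 9 of 40 carriers under high fat diet, with 24.3% of all genes. Under standard diet there were 2 of 40, with 8.66% of all genes. The median log2 fold change of the 40 carriers was -0.04 under both diets. Over all tested genes it was -0.00 under high fat and -0.02 under standard diet. DESeq2's Wald test called 2 carriers under high fat diet (12.6% of all genes) and 0 under standard diet. The main fit has no block for replicate number. Without a block, a fit of the HFD KO and HFD WT libraries alone called 0 carriers and 543 of 15257 genes. A fit of the same libraries blocked by replicate number called 1 carrier (8.44% of all genes), but a different one from the main fit. That carrier was Slc25a44, whereas the main fit called Slc25a53. Under standard diet the blocked fit called 0 carriers.

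The precision allows a statement on size. Between STD KO and STD WT islets, the 95% interval of the log2 fold change lay within -1 and 1, that is within a 2-fold change, for 35 of 40 carriers. The share over all tested genes was 65.0%. Between HFD KO and HFD WT islets it did so for 29 of 40 carriers and 54.7% of all genes. The 5 carriers with wider intervals under standard diet, Slc25a24, Slc25a33, Slc25a45, Slc25a47 and Slc25a48, all averaged under 10 FPKM.

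**Figure D2:**
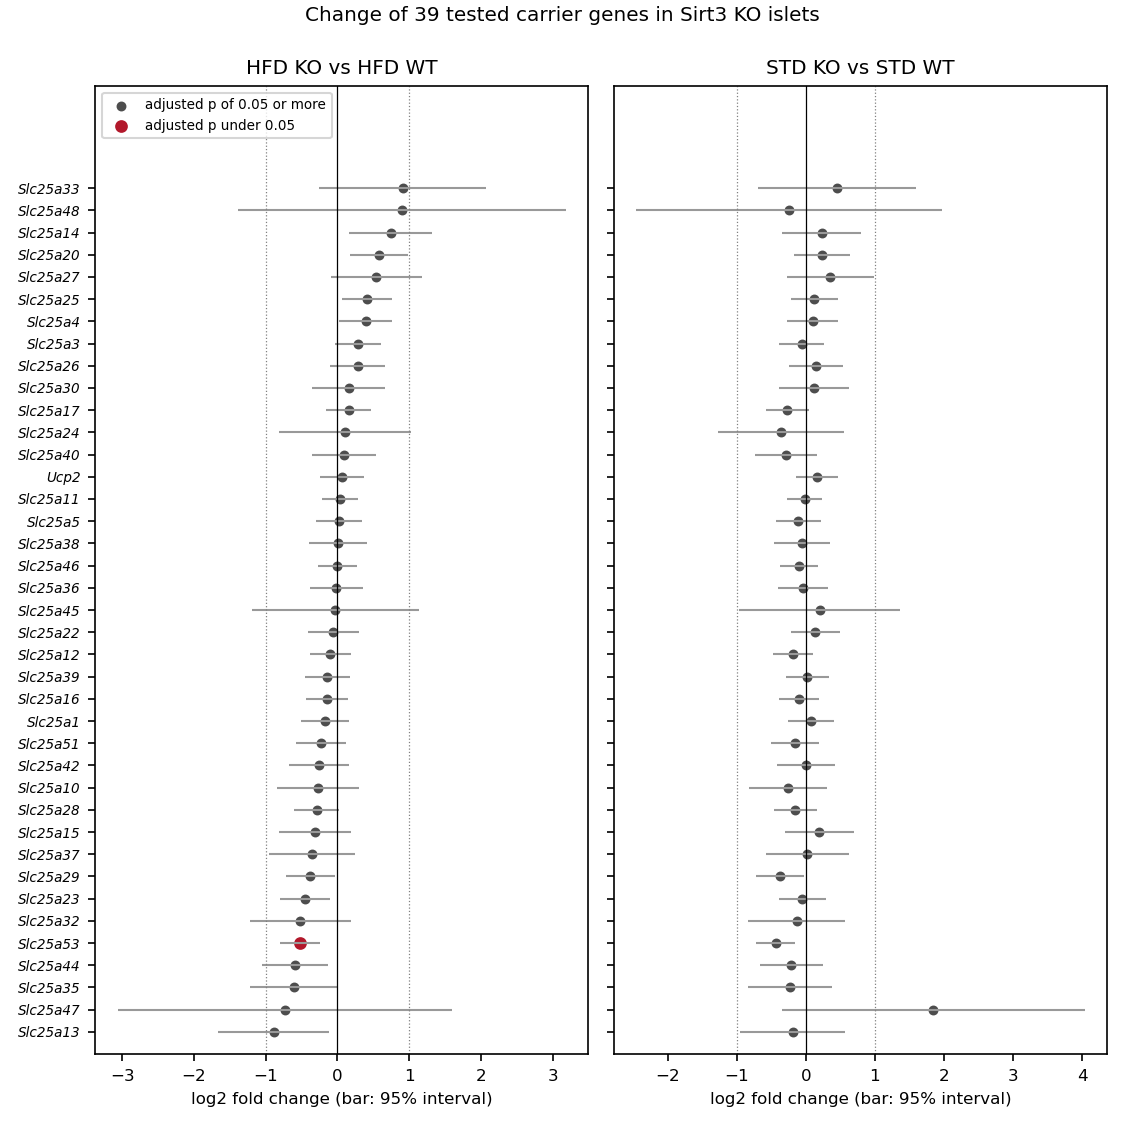
Log2 fold change (point) and 95% interval (bar) of 39 of the 40 tested carriers in HFD KO against HFD WT islets (left) and STD KO against STD WT islets (right), ordered by the left panel. In this fit, which has no block for replicate number, Slc25a53 at -0.52 is the only carrier past the threshold. Slc25a53 has -0.44 on the right, and Slc25a47 and Slc25a48 have the widest intervals.

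In the main fit, which has no block for replicate number, the carrier that passed was Slc25a53, a family member with no established substrate. The gene lies on the X chromosome at 136981116 to 137038302 on the minus strand (mm10). It had 17.7, 16.6 and 14.6 normalised CPM in HFD KO islets, against 23.7, 21.5 and 24.9 in HFD WT islets. It had 15.9, 17.6 and 15.4 normalised CPM in STD KO islets, against 20.6, 24.3 and 21.2 in STD WT islets. KO libraries lay below WT libraries without overlap under both diets, the library labelled HFD KO 2 included. The log2 fold change was -0.52 (SE 0.127, interval -0.80 to -0.24, edgeR adjusted p = 0.0303) under high fat diet. It was -0.44 (SE 0.126, interval -0.71 to -0.16, edgeR adjusted p = 0.167) under standard diet. The 2 diets' genotype effects differed by -0.08 in log2 (interval -0.47 to 0.31, edgeR adjusted p of the interaction = 0.904).

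Alpha cell marker sums lay below WT in all STD KO libraries and in HFD KO 3, and above WT in HFD KO 1 and 2. Macrophage marker sums were 249 to 333 in HFD KO islets, against 127 to 208 in HFD WT islets, and 201 to 267 in STD KO islets, against 155 to 214 in STD WT islets. Their part in the Slc25a53 values was not tested. In FPKM, Slc25a53 averaged 9.21 ± 0.387 in HFD KO and 13.3 ± 0.998 in HFD WT islets (SD, n = 3 each). It averaged 10.4 ± 0.130 in STD KO and 12.9 ± 0.936 in STD WT islets. It ranked 23 of 50 carriers. The call under high fat diet was close to the threshold. It was missed without any 1 of the HFD KO libraries (edgeR adjusted p = 0.0599, 0.0702 and 0.0517 without HFD KO 1, 2 and 3). It was also missed without HFD WT 1 (0.0894) or HFD WT 3 (0.165), and without STD KO 1 (0.0599) or STD KO 3 (0.0538). A fit of the compared groups alone also missed it, both without a block and with the replicate number as a block (edgeR adjusted p = 0.0699 with the block). DESeq2 gave an adjusted p of 0.00985. Its exons overlap those of no other annotated gene, and 5 of 3140 50-base stretches of its longest transcript (0.159%) recur in other genes, among them Ccn3 with 501 counts in the 12 libraries. RefSeq gives it 2 starts, and the 250 bases before each are printed because it is the carrier that passed; capitals mark CG pairs (12 in each).
Slc25a53, downstream start, chrX:136993033-136993282, minus strand: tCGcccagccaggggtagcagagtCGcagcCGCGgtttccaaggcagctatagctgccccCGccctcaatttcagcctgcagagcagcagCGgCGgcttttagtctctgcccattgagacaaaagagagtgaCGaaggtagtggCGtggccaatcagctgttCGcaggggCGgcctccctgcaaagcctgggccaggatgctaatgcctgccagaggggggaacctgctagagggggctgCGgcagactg
Slc25a53, upstream start, chrX:137038303-137038552, minus strand: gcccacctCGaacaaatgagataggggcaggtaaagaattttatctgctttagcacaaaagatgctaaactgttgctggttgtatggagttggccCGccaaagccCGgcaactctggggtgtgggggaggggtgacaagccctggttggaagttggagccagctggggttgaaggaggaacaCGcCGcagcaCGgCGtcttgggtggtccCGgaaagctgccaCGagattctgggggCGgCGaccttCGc

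Several further carriers under high fat diet passed the threshold when HFD KO 3 was left out. Its values for them lay nearer to the HFD WT islets than those of HFD KO 1 and 2, which picking them in this way favours. Without HFD KO 3 the comparison called 5 of 40 carriers (12.5%) and 17.6% of all genes, in place of 1 and 7.40%. Slc25a20 and Slc25a44 also passed in other fits, given below. The 5 were Slc25a14, Slc25a20, Slc25a23, Slc25a35 and Slc25a44, while Slc25a53 missed the threshold. HFD KO 3 also had the lowest alpha cell marker sum of the 12 libraries, as given above. Its beta cell marker sum was 246584 normalised CPM, against 363151 and 366525 in HFD KO 1 and 2. Its stellate cell and fibroblast marker sum, 443, was the highest of the 12 libraries. Macrophage and adipocyte marker sums did not overlap between HFD KO and HFD WT islets. The part of cell composition in these values was not tested.

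Slc25a20, the carrier that brings acylcarnitines in for fatty acid oxidation, had 40.2, 42.8 and 25.4 normalised CPM in HFD KO islets, against 24.3, 24.3 and 23.9 in HFD WT islets. HFD KO 1 and 2 were well above all 3 WT libraries and HFD KO 3 just above them. In STD KO islets it had 26.2, 23.7 and 24.7, against 17.7, 21.04 and 24.7 in STD WT islets, where the groups overlapped. Under high fat diet the log2 fold change was 0.58 (SE 0.185, edgeR adjusted p = 0.0807), and 0.79 without HFD KO 3 (adjusted p = 0.00700). DESeq2 called it with all libraries (0.60, adjusted p = 0.0394).

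Slc25a44, the branched-chain amino acid carrier first described in brown fat, had 52.6, 45.1 and 74.9 normalised CPM in HFD KO islets, against 96.5, 66.3 and 98.2 in HFD WT islets. Its groups overlapped through HFD KO 3 and HFD WT 2. In STD KO islets it had 68.3, 64.7 and 70.8, against 64.8, 79.8 and 91.7 in STD WT islets, with overlap. Under high fat diet its log2 fold change was -0.60 (SE 0.209, edgeR adjusted p = 0.106). It was -0.83 without HFD KO 3 (adjusted p = 0.0221) and -0.78 without HFD WT 2 (adjusted p = 0.0403), where Slc25a44 and Slc25a53 were the carriers called, with 8.14% of all genes. With the compared groups alone and the replicate number as a block it was -0.64 (adjusted p = 0.0459). That fit called 8.44% of all genes and no other carrier.

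**Figure D3:**
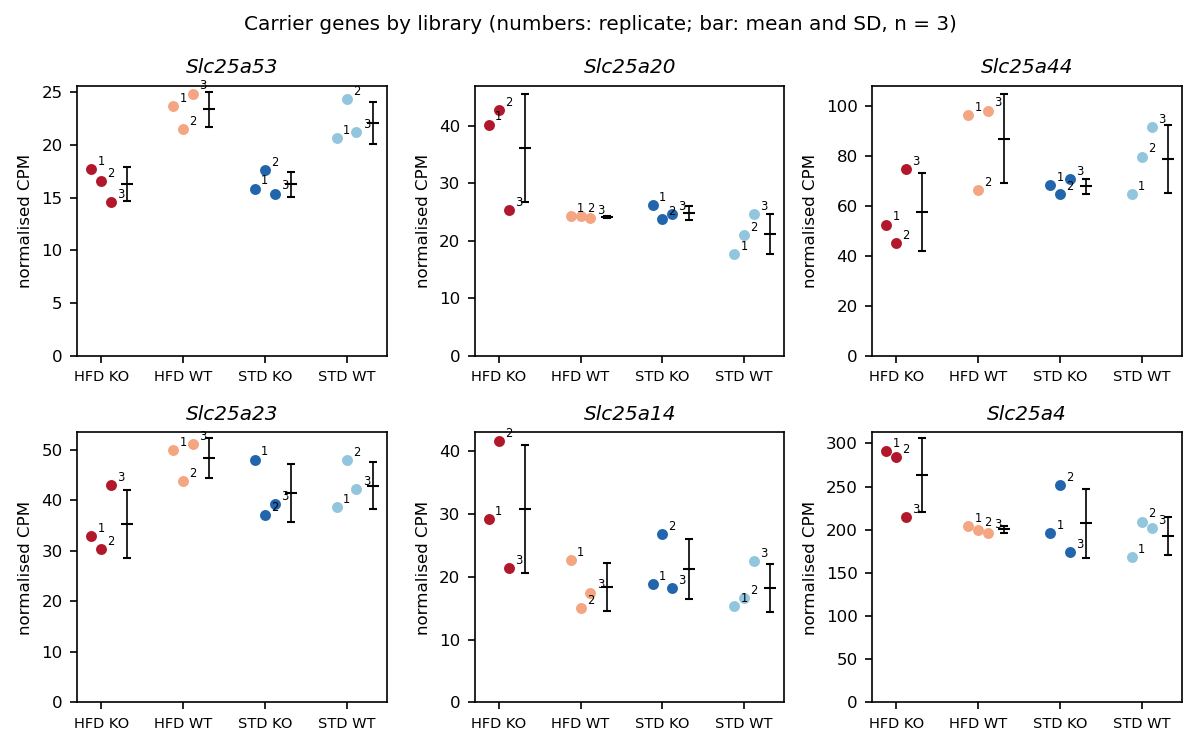
Normalised CPM of 6 carriers in each library, with the replicate number beside the point and the mean and SD (n = 3) as a bar. For Slc25a20, Slc25a44, Slc25a23, Slc25a14 and Slc25a4, HFD KO 3 lies between the other HFD KO libraries and the HFD WT libraries or among the HFD WT libraries, whereas Slc25a53 separates KO from WT under both diets.

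By role, the carriers of adenine nucleotides and phosphate showed no member past the threshold among the 6 tested. Slc25a4 had 291, 284 and 215 normalised CPM in HFD KO islets, against 205, 200 and 197 in HFD WT islets. It had 196, 252 and 174 in STD KO islets, against 168, 209 and 202 in STD WT islets. Each HFD KO library exceeded each HFD WT library, while the standard diet groups overlapped. Its change on the log2 scale under high fat diet was 0.39 (interval 0.02 to 0.76, edgeR adjusted p = 0.178), and under standard diet 0.10 (interval -0.27 to 0.47).

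Slc25a3 had 414, 351 and 303 normalised CPM in HFD KO islets, against 319, 277 and 280 in HFD WT islets, with overlap. It had 278, 309 and 260 in STD KO islets, against 273, 317 and 295 in STD WT islets. This gene's log2 fold change was 0.29 under high fat diet (edgeR adjusted p = 0.254) and -0.06 under standard diet (adjusted p = 0.999). Slc25a5, the more broadly expressed translocase, had 249, 274 and 189 in HFD KO islets, against 237, 238 and 228 in HFD WT islets. It had 183, 208 and 179 in STD KO islets, against 220, 203 and 191 in STD WT islets. The groups overlapped under both diets, and its intervals were -0.30 to 0.34 under high fat and -0.43 to 0.21 under standard diet. Its transcripts are hard to count alone, because 46.6% of their 50-base stretches recur in 9 other genes, mostly pseudogene copies; the copy sharing most, Gm5560, had 6 counts.

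The calcium-regulated ATP-magnesium/phosphate carriers include Slc25a23, Slc25a24 and Slc25a25. Slc25a23 had 32.9, 30.2 and 42.9 normalised CPM in HFD KO islets, against 49.98, 43.8 and 51.1 in HFD WT islets, without overlap. In STD KO islets it had 48.0, 37.1 and 39.2, against 38.6, 47.9 and 42.2 in STD WT islets, with overlap. That gave a log2 fold change of -0.45 under high fat diet (edgeR adjusted p = 0.108; -0.60 and 0.0229 without HFD KO 3). Slc25a25 had 44.5, 34.9 and 42.7 in HFD KO islets, against 29.9, 30.2 and 31.9 in HFD WT islets, again without overlap. That gave a log2 fold change of 0.41 (edgeR adjusted p = 0.141), and 0.13 under standard diet. Both directions therefore occurred within a single role group, with no member passing the threshold.

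Among the uncoupling proteins and their near relatives, 4 were tested and none passed under either diet. Ucp2 had 311, 329 and 331 normalised CPM in HFD KO islets, against 275, 342 and 313 in HFD WT islets. It had 291, 305 and 285 in STD KO islets, against 246, 232 and 308 in STD WT islets. The groups overlapped under both diets. Log2 fold changes were 0.06 under high fat diet (interval -0.24 to 0.37) and 0.16 under standard diet (interval -0.14 to 0.47), so a change of 1.5-fold lay outside both intervals. Ucp2 shares 305 exon bases with Dnajb13 on the opposite strand, which had 288 counts in all, and whether counting used strand is not given in the sources used here.

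Slc25a14, also called UCP5 and abundant in brain, had 29.2, 41.6 and 21.4 normalised CPM in HFD KO islets, against 22.6, 15.02 and 17.5 in HFD WT islets. HFD KO 3 lay inside the WT range, and the log2 fold change was 0.74 (edgeR adjusted p = 0.109), and 0.96 without HFD KO 3 (adjusted p = 0.0360). Slc25a27 and Slc25a30, the other relatives, had log2 fold changes of 0.54 and 0.16 under high fat diet (adjusted p = 0.274 and 0.724).

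The carriers of di- and tricarboxylates and glutamate, which include those of the malate-aspartate shuttle and citrate export, held no call among 6 tested members under either diet. Slc25a1 had 74.2, 70.0 and 78.1 normalised CPM in HFD KO islets, against 90.7, 74.5 and 84.9 in HFD WT islets. It had 81.4, 95.1 and 71.5 in STD KO islets, against 64.8, 77.2 and 93.1 in STD WT islets. Slc25a11 had 58.6, 54.0 and 54.1 in HFD KO islets, against 53.7, 60.3 and 48.8 in HFD WT islets. Both overlapped between genotypes under high fat diet, and so did Slc25a1 under standard diet. Slc25a11 had 54.5, 57.9 and 50.1 in STD KO islets, against 49.99, 54.8 and 59.2 in STD WT islets. Its intervals, -0.22 to 0.29 under high fat and -0.27 to 0.24 under standard diet, were the narrowest of the 40. Slc25a11 shares 189 exon bases with Rnf167 on the opposite strand, which had 13943 counts in the 12 libraries, so its own counts are uncertain by that overlap.

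Slc25a12, the calcium-activated aspartate-glutamate carrier (aralar) of the shuttle, had 59.7, 48.8 and 60.7 normalised CPM in HFD KO islets, against 62.4, 55.0 and 63.7 in HFD WT islets. It had 50.5, 44.7 and 51.4 in STD KO islets, against 51.8, 63.4 and 51.5 in STD WT islets. Slc25a13 (citrin), the form dominant in liver, had 4.88, 3.25 and 4.12 in HFD KO islets, against 6.65, 9.42 and 6.63 in HFD WT islets. HFD KO libraries were all below HFD WT libraries, at a log2 fold change of -0.89 (SE 0.353, interval -1.66 to -0.11, edgeR adjusted p = 0.149). In STD KO islets Slc25a13 had 9.74, 4.15 and 4.88, against 8.67, 8.11 and 4.68 in STD WT islets. These groups overlapped. The 9.74 was the highest of the 12 libraries and came from STD KO 1, which carried hepatocyte transcripts as described below. With a library left out, the log2 fold change under standard diet ranged from -0.66 to 0.029. The part of liver RNA in the Slc25a13 values was not tested. Slc25a22 had 28.1, 25.3 and 34.4 in HFD KO islets, against 33.3, 24.4 and 33.6 in HFD WT islets, and 31.2, 35.1 and 29.6 in STD KO islets, against 25.5, 30.4 and 31.1 in STD WT islets. Its intervals were -0.41 to 0.30 under high fat and -0.22 to 0.49 under standard diet.

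Partners of these carriers were taken from lists of 33 measured genes that work beside the family: outer membrane channels, the pyruvate carrier and sideroflexins, the TIM22 import route and shuttle enzymes. Under high fat diet 3 of 33 passed the threshold (9.09%, with 7.40% of all genes), all of them among the 11 shuttle enzymes. Under standard diet 1 of 33 passed (3.03%, with 1.71% of all genes). The members of these lists were chosen with earlier results of these data known.

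Gpd2, the mitochondrial glycerol-3-phosphate dehydrogenase that drives the other NADH shuttle of beta cells, had 46.8, 28.1 and 53.6 normalised CPM in HFD KO islets, against 135, 96.5 and 134 in HFD WT islets. It had 70.6, 43.7 and 68.7 in STD KO islets, against 94.4, 120 and 65.4 in STD WT islets. The high fat groups were far apart and the standard diet groups overlapped. The log2 fold change was -1.51 (SE 0.292, edgeR adjusted p = 0.00992) under high fat and -0.61 (adjusted p = 0.611) under standard diet. The 2 diets' genotype effects differed by -0.90 in log2 (interval -1.79 to -0.004, edgeR adjusted p of the interaction = 0.621). A difference between diets is therefore not shown after adjustment. The call under high fat diet was made whichever library was left out, with an adjusted p of at most 0.0432.

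Mdh1, the cytosolic malate dehydrogenase of the malate-aspartate shuttle, had 417, 336 and 280 normalised CPM in HFD KO islets, against 237, 193 and 202 in HFD WT islets. The log2 fold change was 0.71 (edgeR adjusted p = 0.0262). It missed the threshold in a fit of the compared groups alone (adjusted p = 0.118), and without HFD KO 1 (0.125), HFD KO 2 (0.0569), HFD WT 2 (0.0717), HFD WT 3 (0.137) or STD KO 1 (0.0502). Me1, the malic enzyme that makes cytosolic NADPH, had 37.3, 31.2 and 34.7 in HFD KO islets, against 20.5, 21.2 and 20.7 in HFD WT islets. Its log2 fold change was 0.73 (edgeR adjusted p = 0.0490), and 9 of the 12 fits that left out a library missed the threshold, with adjusted p up to 0.177. The call held without STD WT 1 (0.00569), STD WT 3 (0.0243) or HFD KO 3 (0.0443). Every HFD KO library exceeded every HFD WT library for both genes. Under standard diet both overlapped between genotypes, with log2 fold changes of 0.24 for Mdh1 and 0.25 for Me1 (edgeR adjusted p = 0.896 and 0.958). Genotype effects under the diets differed by 0.47 for Mdh1 and 0.48 for Me1 in log2 (edgeR adjusted p of the interaction = 0.621 and 0.634). A difference between diets is therefore not shown for either gene.

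Sfxn2, a sideroflexin of the mitochondrial membrane, was the partner called under standard diet, with 28.3, 31.97 and 24.6 normalised CPM in STD KO islets, against 38.8, 48.3 and 45.3 in STD WT islets. Its log2 fold change was -0.64 (edgeR adjusted p = 0.0438), and the call held only without HFD WT 2 (0.0462) or HFD KO 2 (0.0465) among the 12 fits that left out a library, the adjusted p reaching 0.218 without STD KO 3. With the compared groups alone and the replicate block the adjusted p was 0.214. Under high fat diet it had 34.4, 28.5 and 30.9 in HFD KO islets, against 44.7, 36.9 and 40.5 in HFD WT islets, with a log2 fold change of -0.38 (adjusted p = 0.119). None of the 5 outer membrane channels and carrier relatives (Vdac1, Vdac2, Vdac3, Mtch1, Mtch2) and none of the 10 import genes passed under either diet. The smallest adjusted p among the import genes was 0.209 for Timm22 under high fat diet, and 0.106 for Vdac3 among the channels.

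**Figure D4:**
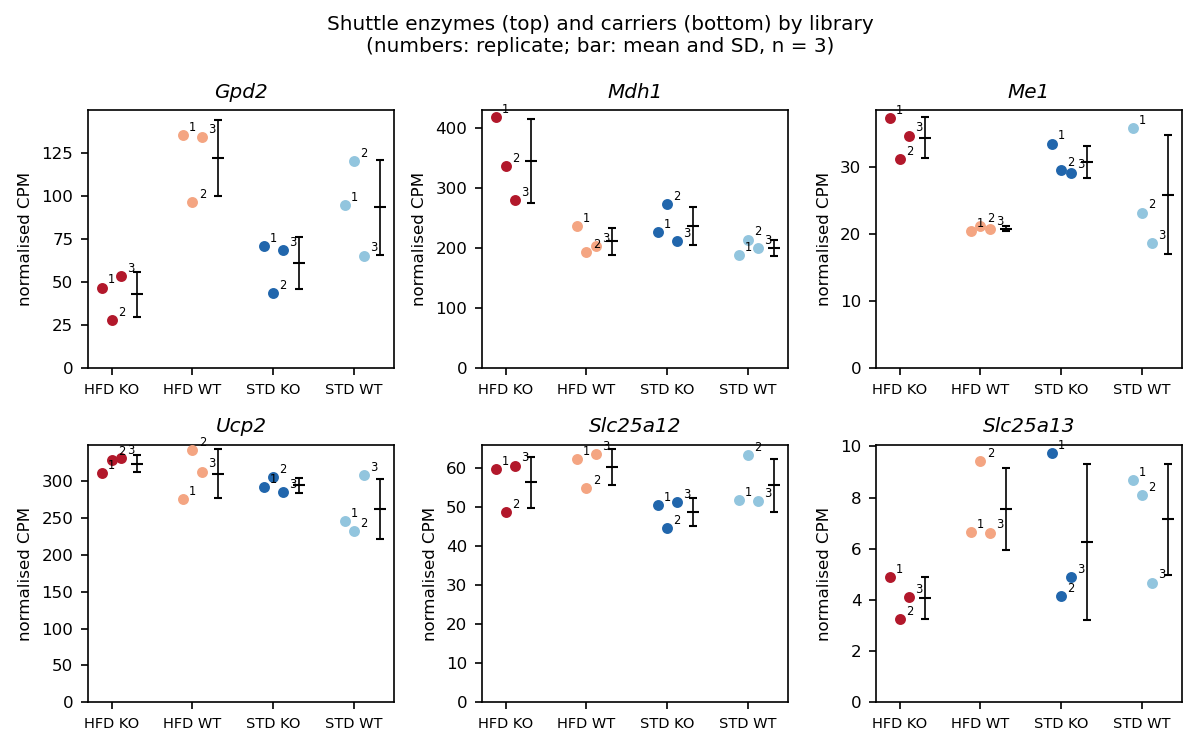
Normalised CPM per library of 3 shuttle enzymes (top) and 3 carriers (bottom), with the replicate number beside the point and the mean and SD (n = 3) as a bar. The enzymes Gpd2, Mdh1 and Me1 separate HFD KO from HFD WT islets, the carriers Ucp2 and Slc25a12 do not, and Slc25a13 is low in all 3 HFD KO libraries.

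Among 7 tested carriers of amino acids, carnitine and glutathione, Slc25a20 and Slc25a44 are described above, and none passed with all libraries. Slc25a39 had 152, 160 and 150 normalised CPM in HFD KO islets, against 180, 154 and 174 in HFD WT islets. It had 159, 184 and 140 in STD KO islets, against 138, 151 and 186 in STD WT islets. Both pairs overlapped. Slc25a29, a carrier of basic amino acids such as arginine and lysine, had 9.64, 9.46 and 10.5 in HFD KO islets, against 12.8, 13.1 and 12.6 in HFD WT islets, without overlap. It had 10.3, 12.6 and 9.38 in STD KO islets, against 12.3, 13.1 and 16.5 in STD WT islets. Its log2 fold change was -0.38 under each diet (edgeR adjusted p = 0.172 under high fat and 0.487 under standard diet). The glycine carrier Slc25a38, the ornithine carrier Slc25a15 and the glutathione-associated Slc25a40 had adjusted p of 0.434 to 0.993 under high fat diet.

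Among 9 tested carriers of cofactors and nucleotides none passed under either diet. Slc25a51 had 84.1, 64.6 and 97.5 normalised CPM in HFD KO islets, against 104, 81.5 and 103 in HFD WT islets. It had 85.7, 80.8 and 91.2 in STD KO islets, against 87.5, 107 and 92.8 in STD WT islets. NAD is the cosubstrate of SIRT3, and for its importer the interval of the log2 fold change was -0.58 to 0.13 under high fat and -0.50 to 0.20 under standard diet. Slc25a36 had 119, 90.2 and 108 in HFD KO islets, against 114, 89.7 and 116 in HFD WT islets. It had 113, 90.8 and 94.1 in STD KO islets, against 83.9, 120 and 103 in STD WT islets, and overlapped under both diets.

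Slc25a17 had 53.0, 56.6 and 38.8 normalised CPM in HFD KO islets, against 47.7, 42.5 and 42.6 in HFD WT islets. It had 42.6, 41.7 and 37.0 in STD KO islets, against 44.9, 52.0 and 48.9 in STD WT islets, where KO lay below WT without overlap. Its log2 fold change was 0.16 under high fat and -0.27 under standard diet, and the difference between them, 0.42 (interval -0.02 to 0.87), had the smallest p of the family in the interaction (edgeR adjusted p = 0.621). Further cofactor carriers, for coenzyme A (Slc25a16 and Slc25a42), S-adenosylmethionine (Slc25a26), folate and FAD (Slc25a32) and pyrimidine nucleotides (Slc25a33), had adjusted p of 0.321 to 0.541 under high fat diet. The iron importers Slc25a28 and Slc25a37 (mitoferrins) had log2 fold changes of -0.29 and -0.36 under high fat diet (edgeR adjusted p = 0.239 and 0.457).

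Of the 6 tested carriers with a role in mitochondrial shape or without a settled substrate, Slc25a53 is given above. Slc25a46, an outer membrane protein that acts on mitochondrial fusion and shape, varied little, with log2 fold changes of -0.00 under high fat (interval -0.28 to 0.27) and -0.10 under standard diet (interval -0.37 to 0.17). Slc25a35 had 4.02, 2.76 and 5.72 normalised CPM in HFD KO islets, against 7.35, 5.31 and 6.46 in HFD WT islets. Expressed in log2 the change was -0.61 (edgeR adjusted p = 0.206; -0.90 and 0.0446 without HFD KO 3). It shares 1151 exon bases with Rangrf on the opposite strand, which had 6 counts in the 12 libraries.

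Slc25a47, a carrier expressed mainly in liver, stood out for a single library. It had 11.3, 0.626 and 0.440 normalised CPM in STD KO islets, against 1.65, 0.824 and 0.947 in STD WT islets. In HFD KO islets it had 0.680, 0.829 and 0.437, against 1.23, 0.715 and 1.26 in HFD WT islets. The same library, STD KO 1, carried transcripts of hepatocyte genes: Alb, for serum albumin, had 2176 normalised CPM there and 27.9 to 54.3 in the other 11 libraries. Summed over 8 hepatocyte genes (Alb, Ahsg, Fga, Fgb, Serpina1a, Cyp2e1, Hpx and Plg, chosen after values were seen), STD KO 1 had 2872, and the others 36.9 to 71.3. The log2 fold change of Slc25a47 between STD KO and STD WT islets was 1.84 (edgeR adjusted p = 0.746) with all libraries and -1.10 without STD KO 1. The part of liver RNA in that value was not tested.

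**Figure D5:**
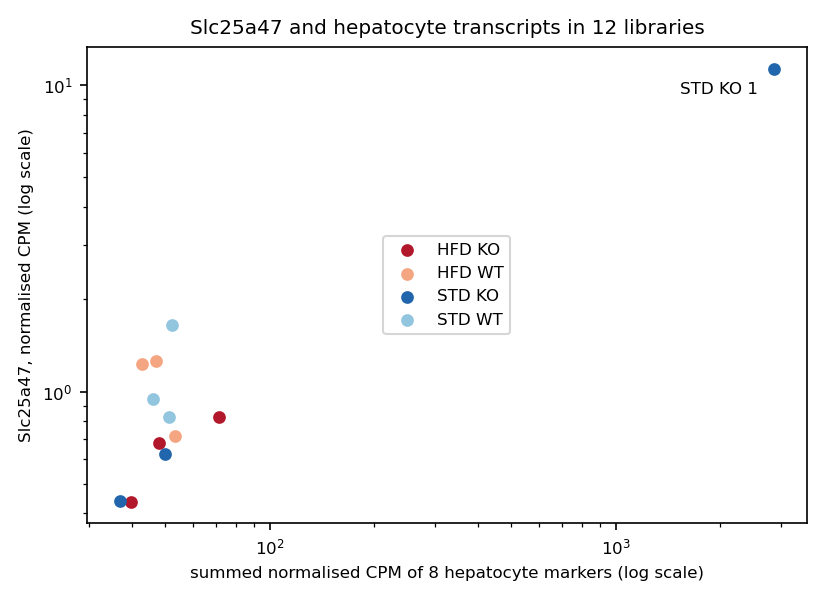
Normalised CPM of Slc25a47 against the summed normalised CPM of 8 hepatocyte genes in each of the 12 libraries, both on log axes. STD KO 1 lies at 11.3 and 2872, and the other 11 libraries lie at 0.437 to 1.65 and 36.9 to 71.3.

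Slc25a47 and Slc25a29 are neighbours on chromosome 12 (mm10), on opposite strands, with 162 bases between their gene models (the model of Slc25a29 ends at 108835883 and that of Slc25a47 begins at 108836046). The RefSeq promoter window of Slc25a47 begins further inside its model, at 108850879. Slc25a29 had 10.3 normalised CPM in STD KO 1, inside the range of the other libraries (9.38 to 16.5). The 2 neighbours therefore did not share the high value of that library.

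The second comparison asked what 36 weeks of high fat diet did to the carriers within each genotype. No carrier passed the threshold between HFD KO and STD KO islets, where 7 of 16076 genes did (0.0435%; 0.0124% lower and 0.0311% higher in HFD KO), or between HFD WT and STD WT islets, where 0 genes did. At an unadjusted p under 0.05 there were 3 of 40 carriers between HFD KO and STD KO islets (12.5% of all genes) and 1 of 40 between HFD WT and STD WT islets (4.74%). DESeq2's Wald test called 0 of 40 carriers in both, with 113 genes called in KO and 38 in WT islets. Intervals lay within a 2-fold change for 34 of 40 carriers in each genotype.

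The smallest p-values between HFD KO and STD KO islets belonged to Slc25a20, Slc25a47 and Slc25a3. Slc25a20 had a log2 fold change of 0.54 (edgeR adjusted p = 0.340), from the libraries given above. Without HFD KO 3 it was 0.76 and passed (adjusted p = 0.0333), in a fit that called 4.87% of all genes and no other carrier. Slc25a3 had 0.34 (adjusted p = 0.384). Slc25a47 had -2.68 (adjusted p = 0.358) with STD KO 1 and 0.28 without it.

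Between HFD WT and STD WT islets the 2 smallest p-values belonged to Slc25a25 and Ucp2. Slc25a25 had 29.9, 30.2 and 31.9 normalised CPM in HFD WT islets, against 36.4, 35.5 and 45.7 in STD WT islets. These groups did not overlap, at a log2 fold change of -0.35 (SE 0.159, edgeR adjusted p = 1). Ucp2 had 0.24 (interval -0.07 to 0.55). Slc25a20, through which long-chain fatty acids enter the matrix as acylcarnitines, had a log2 fold change of 0.19 (interval -0.21 to 0.60) between HFD WT and STD WT islets.

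The third comparison asked whether the effect of the knockout differed between diets. The interaction called 0 of 40 carriers and 0 of 16076 genes in edgeR; at an unadjusted p under 0.05 it held 0 of 40 carriers and 7.91% of all genes. DESeq2's Wald test called 30 genes and 0 carriers. Slc25a17, given above, Slc25a23 (-0.40, interval -0.89 to 0.09) and Slc25a47 (-2.57, and 0.37 without STD KO 1) had the smallest p-values. For Slc25a20 the genotype effects differed by 0.34 (interval -0.23 to 0.92), so the high fat and standard diet results above are not shown to differ.

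The 4 low carriers Slc25a48, Slc25a24, Slc25a10 and Slc25a45 varied between libraries of the same WT group. Slc25a48 had 0.161, 2.27 and 1.37 normalised CPM in HFD WT islets and 5.87, 1.46 and 0.111 in STD WT islets. Slc25a24 had 5.90, 14.8 and 7.72 in HFD WT islets and 20.3, 10.6 and 7.46 in STD WT islets. Slc25a10, the dicarboxylate carrier, had 7.88, 14.8 and 10.5 in HFD WT islets and 17.7, 11.3 and 9.52 in STD WT islets. HFD WT 2 and STD WT 1 were the highest of their groups for all 4 genes, Slc25a45 with 7.09 in HFD WT 2 and 5.37 in STD WT 1 included. Lymphocyte marker sums were also highest of their groups there, at 370 normalised CPM in HFD WT 2 and 192 in STD WT 1, and the ductal sum of STD WT 1, 415, was the highest of the 12 libraries. HFD KO 2 had a lymphocyte sum of 246, against 40.6 and 56.4 in HFD KO 1 and 3, but was the lowest of its group for Slc25a24, Slc25a10 and Slc25a48, at 6.56, 8.42 and 1.93. The part of other cells in these values was not tested.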

How the data were processed

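RNA-seq of total islet RNA gave 12 libraries, 3 in each of 4 groups. The authors deposited whole-number read counts per gene, and beside them an FPKM per gene. Each of the 257939 values above 0 could be recomputed from its count, the summed counts and a single length per gene (relative tolerance 0.0001). That length was derived from the same counts and FPKM, so whether it is right was not tested. Per the submitters' processing notes, TopHat2, Cufflinks, DESeq and the mm10 build were used, without versions or roles; the counting tool, the annotation and the use of strand are not named. Gene symbols were joined by Ensembl ID from GENCODE M21.

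Counts were filtered with filterByExpr (minimum count 10, minimum total 15), scaled by TMM and fitted for all 4 groups with edgeR 4.0.16's robust quasi-likelihood test in R 4.3.3, adjusting over 16076 genes at 0.05; the common biological coefficient of variation was 0.307. Intervals are 95%. The code was tested on simulated counts. Alternatives were DESeq2 1.42.0, other filters and scalings, a length correction, fits of the compared groups alone, a replicate block and leaving libraries out. The replicate block was added to the fits of the compared groups alone, and for the interaction to the fit of all libraries. Same-numbered libraries deviated together between HFD KO and HFD WT islets (r = 0.336 to 0.515), where different-numbered ones had r = -0.382 to -0.028. Deviations were taken from the mean of each group of 3. Positive same-numbered values therefore push the different-numbered ones below zero, and these ranges are not independent. In the other comparisons same-numbered libraries had r = -0.400 to 0.186. Different-numbered libraries there also reached high values, 0.518 for HFD WT 2 with STD WT 1 and 0.416 for HFD WT 1 with STD WT 3. The labels give no pairing, so whether the numbers pair libraries is not known, and the main fit has no block. Replicates differed by more than sampling noise (chi-square per degree of freedom 26.6 to 101).

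Members, role groups, marker and partner lists were chosen with earlier results of these data known. Values per library are given for members past the threshold, the 3 with the smallest p in each contrast where fewer than 3 passed, the 10 highest by FPKM, and a fixed set of 13 carriers. Slc25a10, Slc25a14, Slc25a24, Slc25a35, Slc25a45 and Slc25a48 were added after their values were seen. The code used Python 3.11.15 with pandas 2.3.3, numpy 2.4.6 and matplotlib 3.10.9. Limits from a count of 0 cover counting error only. The values of 1 carrier are not reported here, though it is counted among the members and in every test.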

Additional observations from a re-analysis of the deposited data

How the results depend on the processing

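Called carriers between HFD KO and HFD WT islets numbered 1; there were 0 with no filter, 0 with the compared groups only, 0 without STD WT 3 and HFD KO 2 together, 2 with DESeq2, and 0 to 5 when a library was left out. Between HFD KO and STD KO islets they numbered 0, and 0 to 1 when a library was left out. In the other 3 contrasts the count was 0 under every alternative run. Genes called between HFD KO and HFD WT islets numbered 1189, against 543 with the compared groups only, 2033 with DESeq2 and 519 (without HFD KO 1) to 2899 (without HFD KO 3). Between STD KO and STD WT islets they numbered 275, against 260 with the compared groups only and 135 with the replicate block on those groups. DESeq2 called 484, and fits without a library 146 to 296. Between HFD KO and STD KO islets the genes called numbered 7, against 0 with the compared groups only and 3 with the block on those groups. DESeq2 called 113, and fits without a library 0 to 801. Between HFD KO and HFD WT islets, the compared groups alone gave no call of Slc25a53, and the replicate block added to that fit made the call of Slc25a44. Between STD KO and STD WT islets, with the compared groups alone and the replicate number as a block, Sfxn2 was no longer called.

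Values that changed sign were called in neither fit; apart from Slc25a47, they lay between -0.16 and 0.12 after the change. With length-corrected offsets, HFD KO against HFD WT gave -0.16 for Slc25a11, -0.12 for Slc25a17, 0.039 for Slc25a36, -0.16 for Slc25a5 and -0.054 for Ucp2. With the compared groups only it gave -0.00450 for Slc25a11 and -0.019 for Slc25a5, and the block gave -0.0344 for Slc25a5. Without STD WT 3 and HFD KO 2 it gave 0.032 for Slc25a12, 0.074 for Slc25a22, 0.12 for Slc25a36 and -0.061 for Slc25a5. DESeq2's size factors and its test gave 0.00579 and 0.00585 for Slc25a36. For Slc25a11 in STD KO against STD WT, the compared groups only and the block both gave 0.011, and leaving both libraries out 0.078. With a library left out, HFD KO against HFD WT ranged from -0.030 to 0.10 for Slc25a11, -0.21 to 0.036 for Slc25a22, -0.14 to 0.086 for Slc25a36, -0.10 to 0.17 for Slc25a5 and -0.017 to 0.12 for Ucp2. STD KO against STD WT ranged from -0.053 to 0.22 for Slc25a1, -0.084 to 0.048 for Slc25a11, -0.66 to 0.029 for Slc25a13, -0.17 to 0.088 for Slc25a36, -0.084 to 0.16 for Slc25a39, -0.061 to 0.22 for Slc25a4 and -1.10 to 2.37 for Slc25a47. For Slc25a47 the range was -3.19 to 0.28 in HFD KO against STD KO and -3.10 to 0.37 in the interaction. The cause was not tested. Of single-gene values under alternatives, 42 changed sign, 42 lost and 9 gained a call. The other 960 kept direction and side of the threshold, or were levels. Levels of carriers at 1 FPKM or more changed by less than the SD within groups when TMM-scaled counts per kilobase replaced FPKM. Both use the same gene lengths and libraries, so little change was possible and the lengths were not tested. Of the 11 carriers under 1 FPKM, 10 did not pass the filter and were not tested.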
